A study of Mus musculus with 12 samples.

Results

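The 10 genes described here are regulators of mitochondrial and fatty acid metabolism in skeletal muscle. They were chosen by name from the rows of the count and FPKM tables, as 10 of 56162 features, and each name matched a single row. They are the coactivators Ppargc1a and Ppargc1b, their muscle partner Perm1, the estrogen-related receptors Esrra, Esrrb and Esrrg, the peroxisome proliferator-activated receptors Ppara and Ppard, the corepressor Nrip1 and the mitochondrial transcription factor Tfam.

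RNA was sequenced from muscle fibres of male mice of the C57BL/6J strain, with 3 libraries in each of 4 groups. These were type I fibres of trained mice, type I fibres of untrained mice, type IIb fibres of trained mice and type IIb fibres of untrained mice. Type I fibres, which are slow and oxidative, came from the soleus, and type IIb fibres, which are fast and glycolytic, came from the extensor digitorum longus (EDL). Training was 6 weeks of treadmill running at 12 to 16 m/min, in sessions of 60 min on 5 days a week, and trained mice were killed 3 days after the last run. The labels give an age of 8 weeks to every group, without saying whether it was reached before or after training. Soleus was digested for 90 min and EDL for 60 min in 2 mg/ml collagenase at 37 °C, so fibre type, muscle and digestion time cannot be told apart. Part of every fibre served to identify its myosin heavy chain isoform as protein, and the rest was lysed for sequencing. The number of fibres or mice behind a library is not given in the sources used here, so p-values measure the spread between libraries, which may be partly technical. In such libraries, fewer contributing cells and less RNA per cell cannot be told apart.

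PGC-1 coactivators have no DNA-binding domain of their own and are recruited to promoters by transcription factors, among them the estrogen-related receptors (ERRs) and the PPARs. ERRs are orphan nuclear receptors that bind promoters of genes for oxidative phosphorylation, the tricarboxylic acid cycle and fatty acid oxidation, and PPARs act on genes of fatty acid uptake and oxidation. In mouse muscle, Ppargc1a is known for its induction by exercise, and ERRβ and ERRγ for their part in the slow oxidative fibre programme. Nrip1 encodes RIP140, a corepressor that acts against these receptors, and Tfam packages and transcribes mitochondrial DNA.

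Upstream windows are shown because these genes are known to regulate one another, and the windows of Esrrb and Esrrg belong to the pair with the largest differences between fibre types. RefSeq windows on GRCm38.p6, the assembly of the mm10 build, were taken for 9 of the 10 genes, 14 windows in all. Ppargc1b was left out when the windows were chosen, so its motif matches are not reported here. Each line gives the 250 bases before the first transcribed base of a RefSeq transcript, 5′ to 3′ on the gene's strand. Matches to the searched motifs are in capitals. The gene spans deposited with the FPKM values differ from these starts. They begin within the windows of Esrrg, Perm1 and Tfam, at 187608791, 156215868 and 71238280, and cover the last base of the Ppargc1a window. The Ppara span begins before its window, at 85734983. The windows are chr12:86360867-86361116 on the plus strand for Esrrb, chr1:187608756-187609005 on the plus strand for the first of 4 Esrrg starts, chr4:156215677-156215926 on the plus strand for Perm1, chr5:51567726-51567975 on the minus strand for Ppargc1a and chr10:71238045-71238294 on the minus strand for Tfam.
Esrrb: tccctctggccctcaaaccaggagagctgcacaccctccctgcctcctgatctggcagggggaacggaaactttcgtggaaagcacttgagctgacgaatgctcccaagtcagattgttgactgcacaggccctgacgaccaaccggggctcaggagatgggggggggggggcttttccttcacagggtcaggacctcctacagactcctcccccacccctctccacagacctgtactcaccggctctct
Esrrg: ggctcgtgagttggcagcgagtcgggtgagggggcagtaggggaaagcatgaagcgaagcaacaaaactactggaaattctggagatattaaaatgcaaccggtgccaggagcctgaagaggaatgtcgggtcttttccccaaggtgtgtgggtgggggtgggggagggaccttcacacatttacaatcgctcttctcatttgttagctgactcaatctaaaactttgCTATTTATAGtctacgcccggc
Perm1: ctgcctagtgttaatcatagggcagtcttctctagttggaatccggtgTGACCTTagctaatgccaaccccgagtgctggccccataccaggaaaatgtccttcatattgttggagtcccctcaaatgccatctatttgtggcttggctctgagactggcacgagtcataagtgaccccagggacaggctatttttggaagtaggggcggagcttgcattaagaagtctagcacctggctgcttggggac
Ppargc1a: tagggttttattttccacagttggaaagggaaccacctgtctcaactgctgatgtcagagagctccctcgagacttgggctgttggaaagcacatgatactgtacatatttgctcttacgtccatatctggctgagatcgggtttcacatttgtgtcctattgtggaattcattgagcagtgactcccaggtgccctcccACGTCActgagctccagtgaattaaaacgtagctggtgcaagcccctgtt
Tfam: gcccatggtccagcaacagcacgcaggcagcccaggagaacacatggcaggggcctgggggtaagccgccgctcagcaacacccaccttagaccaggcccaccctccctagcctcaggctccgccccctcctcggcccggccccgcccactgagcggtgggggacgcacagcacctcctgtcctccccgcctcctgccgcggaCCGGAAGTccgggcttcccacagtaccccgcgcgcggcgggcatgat

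The motifs searched on both strands were the ERR core AAGGTCA, the PPAR repeat (AGGTCA, any base, AGGTCA), the NRF1 motif (GCGC, any 2 bases, GCGC), the ETS motif CCGGAAGT bound by GABP, the MEF2 frame (CTA, any 4 bases, TAG) and the cAMP response core TGACGT. The ERR core holds the AGGTCA of the PPAR repeat, so these letters overlap. Perm1 had the ERR core on the opposite strand, starting 202 bases before its first transcribed base, and 4.08% of 32851 RefSeq windows of this length hold it. The MEF2 frame lay 22 bases before the first Esrrg start, was absent from the other Esrrg windows and is held by 3.2% of windows. Ppargc1a had the cAMP response core at 50 bases, against 6.47% of windows, and Tfam the ETS motif at 47 bases, against 2.88%. The Ppara window, not printed, held the NRF1 motif at 31 bases, against 4.98%. The PPAR repeat occurred in 0 of the 14 windows and in 0.0335% of all, and the Esrrb window shown held none of the 6 motifs. Each percentage holds for a single window, while 14 windows were searched for 6 motifs, so a match somewhere among them is less rare than its percentage. By the deposited gene spans, the matches of Esrrg, Tfam and Ppara lie inside the gene, and those of Perm1 and Ppargc1a lie before it. These matches describe letters in a window and are not binding sites.

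Library totals ranged from 8026397 to 24995288 counts, and the libraries held between 3636 and 14428 genes with at least 10 counts. Myh7, the slow myosin heavy chain, made up 80.5 to 99.8% of the counts of the 4 adult myosin heavy chain genes in type I libraries, and Myh4, the type IIb myosin, 99.7 to 100% in type IIb libraries, so the fibre labels fitted their markers. Markers of other cells, summed as CPM of the library total without TMM scaling, were uneven. All 8 endothelial markers were detected in trained type I, untrained type I and trained type IIb libraries, with sums of 0.31 to 266, 68.2 to 1885 and 0 to 316 CPM, and untrained type IIb libraries had 0 to 5.06 CPM, with Pecam1, Cdh5, Kdr, Tie1, Egfl7, Fabp4 and Aqp1 at 0. Over the same 4 groups in that order, 6 fibroblast markers summed to 0.296 to 115, 19.9 to 8825, 0.105 to 167 and 0.103 to 0.166 CPM, with Lum and Pdgfra at 0 in untrained type IIb libraries. The 6 mural cell markers summed to 6.68 to 44.2, 22.2 to 1074, 0 to 147 and 0 CPM, and the 5 erythroid markers to 37.4 to 89.9, 7 to 1616, 0 to 52.3 and 0 to 8.24 CPM. The highest fibroblast and mural sums were in untrained type I library 3, and sums of macrophage, adipocyte, satellite cell and Schwann markers reached at most 38, 2.06, 305 and 16.1 CPM. Counts are given below as CPM, the usual count scaled to library size, here with the TMM method of edgeR. The value of 3 counts in a library lay between 0.0796 and 0.546 CPM. Calls required an adjusted p under 0.05 (Benjamini-Hochberg) from the quasi-likelihood test of edgeR over 11747 genes. All 10 regulators passed its expression filter, but 6 of them had at least 10 counts in 3 or fewer of the 6 type IIb libraries. Of these, Esrra had 382 counts in type I and 377 in type IIb libraries, and the others were tested largely through their type I counts.

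The regulators' transcripts were detected unevenly. Libraries with at least 10 counts for all 10 genes were 1 of trained type I and 3 of untrained type I fibres. The other trained type I libraries had 7 such genes each, trained type IIb libraries had 4, 5 and 8, and untrained type IIb libraries had 3, 9 and 5. The lowest number, 3, was in the library with the fewest genes detected, 3636, and the plot of detected regulators against all genes detected shows how closely the counts ran together.

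**Figure D1:**
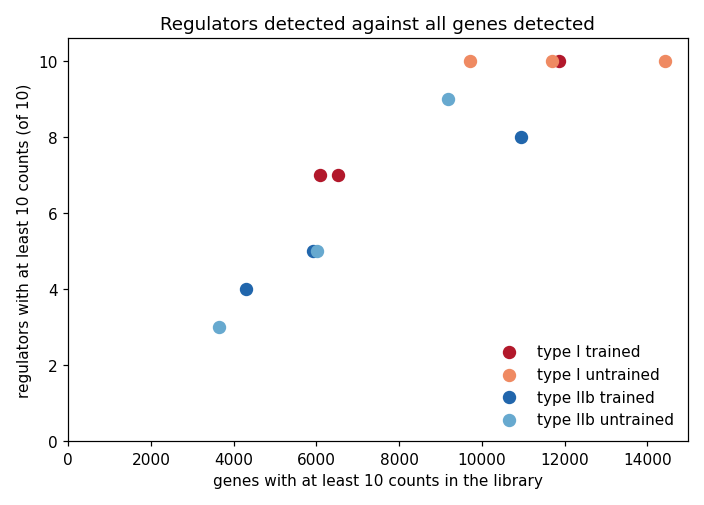
Number of the 10 regulators with at least 10 counts (y axis) against the number of all genes with at least 10 counts (x axis), with 1 point per library, coloured by group. The 4 libraries with all 10 regulators had 9711 or more genes, and the library with 3 regulators had 3636.

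Between fibre types, the largest differences among the 10 regulators were those of Esrrb and Esrrg, both on the side of type I fibres. Averaged over training, 1 of the 10 regulators, Esrrb, was called higher in type I fibres, where 1.93% of all genes tested were called in either direction and 1.11% were called higher. At an unadjusted p under 0.05 there were 2, Esrrb and Esrrg, against 16.9% of all genes. DESeq2 called both and limma voom these and Ppargc1b, against 9.35% and 9.13% of all genes. Esrrb and Esrrg were also the 2 whose 6 type I libraries all lay above all 6 type IIb libraries, a pattern of 2.5% of all genes. The median log2 difference of the 10 regulators was 0.95, against 0.60 for all genes tested, and 7 were positive and 3 negative.

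Esrrb, which encodes ERRβ, was read almost entirely in type I libraries. The gene (ENSMUSG00000021255) lies at chr12:86361117-86521628 on the plus strand of mm10, as the deposited table gives it. It had 579, 233 and 1210 counts in trained type I fibres and 663, 590 and 987 in untrained type I fibres, against 0, 5 and 3 in trained type IIb fibres and 0, 0 and 0 in untrained type IIb fibres. The lowest type I library thus held 233 counts and the highest type IIb library 5, and the groups did not overlap. Levels were 51.1 ± 22.4 CPM in trained and 36.1 ± 8.68 CPM in untrained type I fibres, against 0.376 ± 0.476 CPM in trained type IIb fibres and 0 in untrained type IIb fibres (SD, n = 3 each). From pooled counts the type I level was 296-fold that of type IIb, with a 95% counting interval of 150 to 686, which covers the counting error of reads only. In untrained mice the type I level was at least 355-fold higher than that of type IIb, with 3 counts over the group as the floor. The fitted log2 difference averaged over training was 9.53 with an SE of 1.88 (edgeR adjusted p = 0.0116), and it depends on the prior count because a group is at 0. Higher values in type I held in 6 of 6 libraries against all 6 of type IIb.

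The Esrrb call held when any single library was left out, with adjusted p between 0.0169 and 0.0402. It ended without the 3 libraries highest in endothelial markers, untrained type I libraries 1 and 3 and trained type IIb library 3, where the log2 difference was 9.29. This fit was chosen after seeing the data and leaves untrained type I library 2 alone in its group. Fewer libraries and fewer endothelial markers cannot be told apart in it. Trained type I libraries 1 to 3 had 72, 27.4 and 53.9 CPM of Esrrb beside endothelial sums of 0.31, 266 and 1.94 CPM. Untrained type I libraries 1 to 3 had 39.8, 42.4 and 26.2 CPM of Esrrb beside sums of 1885, 68.2 and 811 CPM, and the part of these markers in the result was not tested. Tested within each training state, Esrrb was not called by edgeR, with a log2 difference of 7.10 (SE 2.38, adjusted p = 0.467) in trained mice and 11.97 (SE 2.93, adjusted p = 0.112) in untrained mice. DESeq2 called both, at adjusted p = 5.33e-05 and 1.65e-08, and so did limma voom, at 0.0186 and 0.00103.

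Esrrg, which encodes ERRγ, had the highest mean level per length of the 3 ERR genes in type I fibres, 46.5 ± 31.7 FPKM (SD, n = 6). The gene (ENSMUSG00000026610) lies at chr1:187608791-188214885 on the plus strand of mm10. Its counts were 2649, 293 and 4002 in trained and 1347, 1139 and 3165 in untrained type I fibres, against 0, 0 and 285 in trained and 0, 48 and 0 in untrained type IIb fibres. In CPM, untrained type I libraries lay close together at 80.8, 81.8 and 84, while trained ones spread from 34.5 to 330. A single type IIb library of each training state held any Esrrg counts, and its 20.6 CPM in trained type IIb library 3 was below the lowest type I value. The pooled type I level was 21-fold that of type IIb (95% counting interval 18.8 to 23.5).

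Averaged over training, the log2 difference of Esrrg was 5.34 (SE 1.57) and was not called by edgeR (adjusted p = 0.0842). It was called by DESeq2 (adjusted p = 0.0064), by limma voom (0.00102) and without the expression filter (0.00241). Leaving out trained type IIb library 3 or untrained type IIb library 2, the libraries that held the type IIb counts, gave edgeR adjusted p = 0.00961 and 0.0215. Log2 differences then reached up to 10.09. The fit without the 3 libraries highest in endothelial markers, with a single untrained type I library, gave a log2 difference of 9.88. In trained mice the log2 difference was 4.71 (adjusted p = 0.614), and in untrained mice it was 5.98 (adjusted p = 0.23). Without the single type IIb library that held counts, these became 14.23 in trained mice (adjusted p = 0.0864) and 13.17 in untrained mice (adjusted p = 0.132), fitted against type IIb libraries at 0 and so dependent on the prior count.

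Esrra, which encodes ERRα and is often the leading ERR of other oxidative tissues, was low in both fibre types. It had 9.58, 0.118 and 3.74 CPM in trained and 5.82, 2.44 and 2.36 CPM in untrained type I fibres, against 0, 0 and 10.9 CPM in trained and 0.759, 1.93 and 18 CPM in untrained type IIb fibres. The ranges overlapped and the highest value was in a type IIb library. The log2 difference averaged over training was -0.33 (SE 1.72, adjusted p = 0.989), and its sign turned without trained type IIb library 3 (3.90) or untrained type IIb library 3 (0.85). In these counts without strand, 3.74% of the Esrra exon bases are shared with Trmt112 and Mir6990.

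Measured per length in FPKM, the 3 ERR genes summed to 18 to 126 in the 6 type I libraries and 0 to 11.5 in the 6 type IIb libraries. Esrrg made up 48.8 to 74.5% of that sum in type I libraries, Esrrb 21.4 to 50.9% and Esrra 0.317 to 7.69%. In the 2 type IIb libraries with the highest sums, 11.5 and 9.37 FPKM, Esrra made up 49.9 and 100%. Shares in the other type IIb libraries rest on sums under 2 FPKM, and trained type IIb library 1 had no ERR count.

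**Figure D2:**
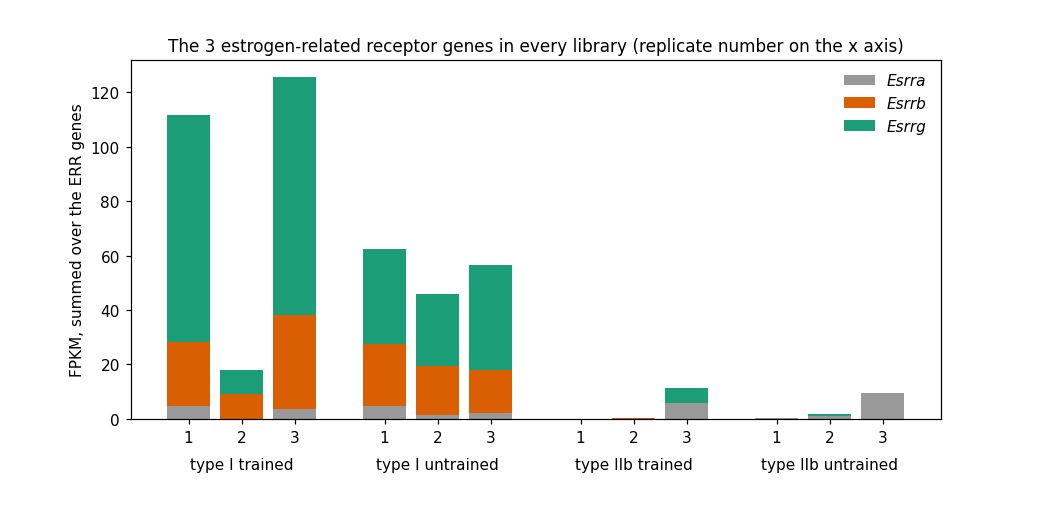
FPKM of Esrra, Esrrb and Esrrg, stacked, in every library, with groups and replicate numbers along the x axis. Type I bars reach 18 to 126 FPKM and consist mostly of Esrrg and Esrrb, and no type IIb bar exceeds 11.5 FPKM.

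The coactivators overlapped between fibre types. Ppargc1a, which encodes PGC-1α, had 37.2, 62.8 and 78.9 CPM in trained and 64.8, 76.5 and 36.3 CPM in untrained type I fibres, against 3.49, 55 and 76.9 CPM in trained and 0, 86.1 and 41.5 CPM in untrained type IIb fibres. The 6 type I libraries spanned 36.3 to 78.9 CPM, and the highest value of all, 86.1 CPM, was in type IIb. Its lowest values, 0 and 3.49 CPM, were in the 2 libraries with the fewest genes detected, 3636 and 4291. The log2 difference between fibre types averaged over training was 0.44 (SE 1.12, adjusted p = 0.95), and it was -0.12 without those 2 libraries, a fit chosen after seeing the data.

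Ppargc1b, which encodes PGC-1β, had 33.7, 9.42 and 11.4 CPM in trained and 8.7, 26.8 and 1.91 CPM in untrained type I fibres, against 0, 0 and 11.9 CPM in trained and 0, 6.44 and 0 CPM in untrained type IIb fibres. It was detected in 6 of 6 type I libraries and in 2 of 6 type IIb libraries, and the ranges overlapped. The log2 difference averaged over training was 2.36 (SE 1.89) and was not called by edgeR (adjusted p = 0.646) or DESeq2 (0.537), while limma voom called it at 5.55 (0.0293). Within the training states edgeR gave 2.19 in trained mice (adjusted p = 0.964) and 2.53 in untrained mice (adjusted p = 0.859). These values rest on trained type IIb library 3 and untrained type IIb library 2, the type IIb libraries with Ppargc1b counts. The averaged difference ran from 1.77 to 6.68 with a library left out, moving by over 1.5 times without either of them, and was not called in any of those fits. In trained mice it ran from 1.39 without trained type I library 1 to 10.94 without trained type IIb library 3, and in untrained mice from 1.3 without untrained type I library 2 to 10.46 without untrained type IIb library 2. Of the FPKM summed over both PGC-1 genes, Ppargc1a made up 47.1 to 93.9% in type I libraries, and 83.9 to 100% in the type IIb libraries with a count.

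Perm1 encodes a muscle protein induced by PGC-1 and ERRs that in turn raises their target genes. It had 228, 36.2 and 188 CPM in trained and 152, 212 and 104 CPM in untrained type I fibres, against 28, 88.5 and 161 CPM in trained and 43.6, 103 and 12.4 CPM in untrained type IIb fibres. It had at least 135 counts in all 12 libraries, while Esrrb and Esrrg had none in 4 of the 6 type IIb libraries each. Averaged over training, the log2 difference was 1.13 (SE 0.68, adjusted p = 0.461). In untrained mice all type I libraries exceeded all type IIb libraries, narrowly, at 104 against 103 CPM, and the log2 difference was 1.55 (SE 0.97, adjusted p = 0.52). In trained mice the libraries overlapped and it was 0.70 (SE 0.95, adjusted p = 0.975).

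The PPARs had few counts. Ppara, the receptor best known for fatty acid oxidation in liver and muscle, ranged from 0.249 to 12.1 CPM in type I libraries and from 0 to 14.8 CPM in type IIb libraries, with medians of 4.17 and 0.144 CPM. Ppard, the receptor tied in mouse muscle to running endurance, ranged from 0 to 4.85 CPM in type I and from 0 to 5.63 CPM in type IIb, with medians of 2.09 and 0.455 CPM. The 2 genes had no counts in 3 of 6 type IIb libraries each, and Ppard had none in 1 type I library. Log2 differences averaged over training were 1.65 for Ppara (SE 1.83, adjusted p = 0.799) and 0.78 for Ppard (SE 1.78, adjusted p = 0.944). In these libraries no fibre type difference in either was detected, and the Ppard value turned to -0.63 without trained type I library 3. The Ppara value ran from 1.06 to 4.73 with a library left out, moving by over 1.5 times without untrained type I library 1, untrained type IIb library 2 or trained type IIb library 2.

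Nrip1 varied more between libraries than between fibre types. It had 0.995, 0.589 and 49.7 CPM in trained and 31.2, 24.3 and 9.13 CPM in untrained type I fibres, against 3.1, 8.92 and 14.7 CPM in trained and 3.36, 66.9 and 189 CPM in untrained type IIb fibres. The highest library exceeded the lowest of its own group 84.4-fold in trained type I and 56.2-fold in untrained type IIb fibres. The log2 difference averaged over training was -0.53 (SE 1.26, adjusted p = 0.946), and it was 0.12 without untrained type IIb library 3.

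Tfam was detected in every library of both fibre types. Levels were 120, 31.9 and 50 CPM in trained and 65.2, 60.1 and 29.5 CPM in untrained type I fibres, against 81.4, 92.5 and 57.4 CPM in trained and 86.7, 63.4 and 173 CPM in untrained type IIb fibres. The lowest of the 12 values was 29.5 CPM and rested on 1113 counts. Its log2 difference averaged over training was -0.63 (SE 0.68, adjusted p = 0.795), and the libraries of both fibre types overlapped.

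**Figure D3:**
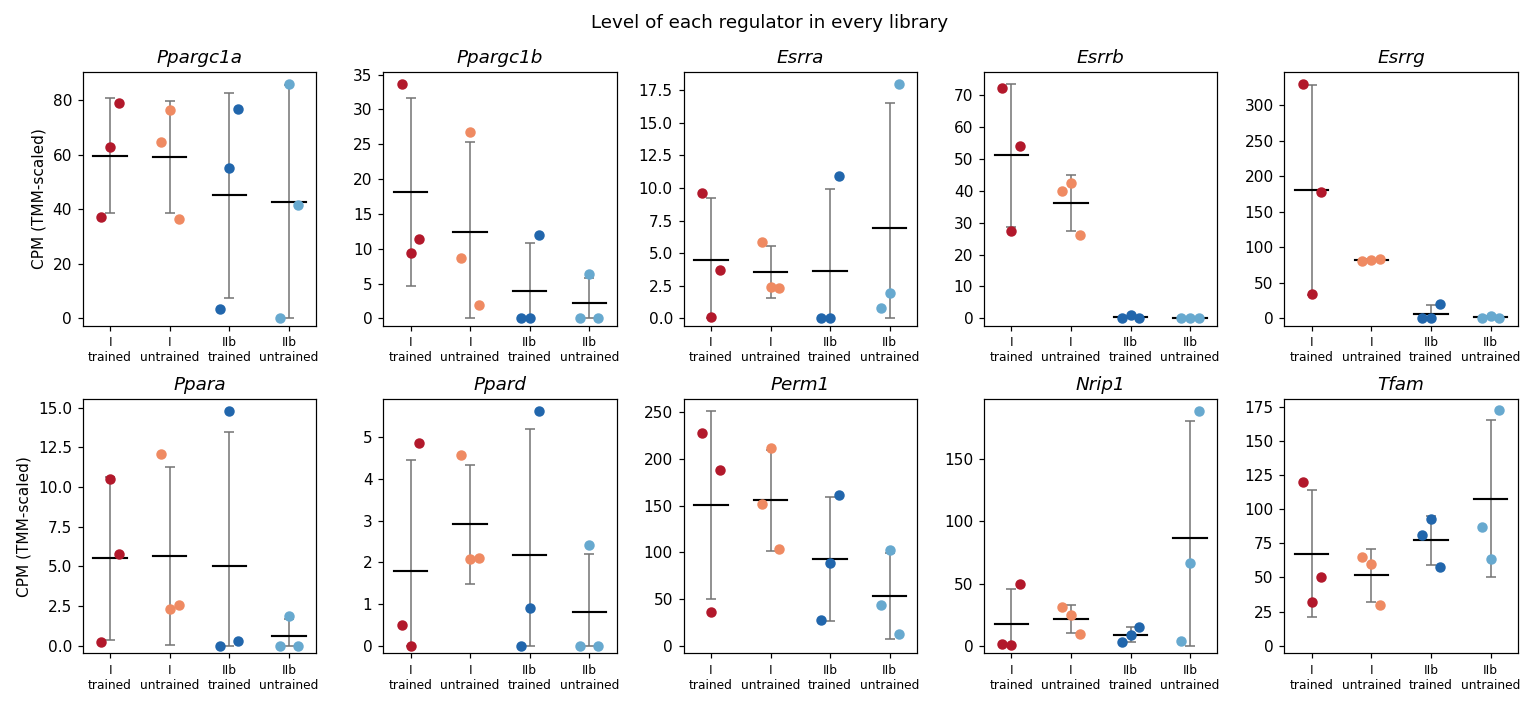
CPM of each regulator in every library, with 1 point per library, a line at the group mean and grey bars of 1 SD (n = 3), cut at 0. Type I libraries of Esrrb and Esrrg lie above all type IIb libraries, with lowest values of 26.2 and 34.5 CPM, and the other 8 genes overlap between fibre types.

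Within the training states, 0 of the 10 regulators were called by edgeR between fibre types, with backgrounds of 0.536% of all genes in trained and 0.46% in untrained mice. At an unadjusted p under 0.05, 2 regulators (Esrrb and Esrrg) passed in each state, against 8.03% and 17.5% of all genes. DESeq2 called 1 in trained mice and 2 in untrained mice, and limma voom 2 in each, where their backgrounds were 2.95%, 8.78%, 1.23% and 16.2%. In trained mice 2 regulators, Esrrb and Esrrg, had type I libraries all above type IIb libraries, against 6.72% of genes. In untrained mice 4 did, Esrrb, Esrrg, Ppara and Perm1, where 22.8% of all genes showed this pattern. The median log2 difference of all genes was itself 0.21 in trained and 0.85 in untrained mice, and that of the 10 regulators was 0.55 in trained and 1.70 in untrained mice, unchanged with Esrrb at the bound from its 0 counts.

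In type I fibres, training left no detectable mark on the 10 regulators. By edgeR 0 of 10 were called, with a background of 0% of 11747 genes, and 0 of 10 had an unadjusted p under 0.05, against 2.94% of all genes. DESeq2 and limma voom called 0 of 10 as well, with backgrounds of 0.502% and 0.0766%. Ppargc1a averaged 59.6 ± 21 CPM in trained and 59.2 ± 20.7 CPM in untrained type I fibres, a log2 difference of 0.01 with an SE of 1.59 (adjusted p = 1). Its sign was negative in 5 of the other settings, between -0.04 and -0.34, and without any of 3 single libraries. Esrrg averaged 181 ± 148 CPM in trained and 82.2 ± 1.65 CPM in untrained type I fibres, with 2 of 3 trained libraries above every untrained one and the third below all of them (log2 difference 1.14, SE 1.87, adjusted p = 1).

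Esrrb, at 51.1 ± 22.4 CPM in trained and 36.1 ± 8.68 CPM in untrained type I fibres, gave 0.50 (SE 1.81, adjusted p = 1). Perm1 averaged 151 ± 101 CPM in trained and 156 ± 54.1 CPM in untrained type I fibres, a log2 difference of -0.05 (SE 0.95, adjusted p = 1). For Tfam the levels were 67.4 ± 46.6 CPM in trained and 51.6 ± 19.3 CPM in untrained type I fibres, a log2 difference of 0.38 (SE 0.97, adjusted p = 1). Trained type I library 2 was the lowest of its group for Esrrb, Esrrg, Perm1 and Tfam, and each trained range enclosed or crossed the untrained one.

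In type IIb fibres, 0 of 10 regulators were called after training by edgeR, again with a background of 0%, and by DESeq2 and limma voom, with backgrounds of 3.1% and 0.017%. From the type IIb libraries alone, 5 of the 10 passed the expression filter, among them Ppargc1a, Perm1, Nrip1 and Tfam, and the remaining 5 entered this test through their type I counts. Esrrb was the 1 regulator with an unadjusted p under 0.05, as were 8.21% of all genes, on 8 counts in trained and 0 in untrained type IIb fibres (adjusted p = 0.597). A fitted log2 difference of 5.38 (SE 2.35) depends there on the prior count. Against a floor of 3 counts over the untrained group, the pooled trained level was 3.2-fold, which is no firm lower limit. It rests on 0, 5 and 3 counts in trained type IIb libraries 1 to 3, whose own counting error it leaves out. Nrip1 had the lowest log2 difference of the 10, -3.27 (SE 1.94, adjusted p = 0.677), with 8.92 ± 5.81 CPM in trained and 86.3 ± 94.2 CPM in untrained type IIb fibres. Untrained library 1, at 3.36 CPM, lay within the trained range of 3.1 to 14.7 CPM, while the other untrained libraries lay above it.

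Ppargc1a did not separate the training states of type IIb fibres, at 45.1 ± 37.7 CPM in trained and 42.5 ± 43.1 CPM in untrained libraries (log2 difference 0.08, SE 1.59, adjusted p = 1). Perm1 averaged 92.6 ± 66.7 CPM in trained and 53.1 ± 46.1 CPM in untrained type IIb fibres, a log2 difference of 0.80 (SE 0.96, adjusted p = 0.958). Tfam averaged 77.1 ± 18 CPM in trained and 108 ± 57.7 CPM in untrained type IIb fibres, a log2 difference of -0.48 (SE 0.97, adjusted p = 1). The Esrrg value of 2.40 (SE 1.95, adjusted p = 0.854) rests on 285 counts in trained and 48 counts in untrained type IIb fibres, each from a single library. It turned to -7.16 without trained type IIb library 3.

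Whether training acted differently in the fibre types was tested by the interaction, and 0 of 10 regulators were called, with a background of 0% and adjusted p between 0.669 and 1. At an unadjusted p under 0.05 there were 0 regulators against 8.94% of all genes, and DESeq2 and limma voom called 0 regulators where they called 3.32% and 0.0255% of all genes. Training averaged over fibre types also gave 0 of 10, with a background of 0%, 0 at an unadjusted p under 0.05 (3.82% of all genes) and 0 by DESeq2 and limma voom (1.93% and 0.0255%). Over the 10 regulators, the SEs of the training differences within a fibre type ran from 0.95 to 2.72 on the log2 scale. Differences well above their SE also went uncalled, as with Esrrb in type IIb fibres at 5.38 (SE 2.35). Changes of several log2 units could therefore be missed by these tests.

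**Figure D4:**
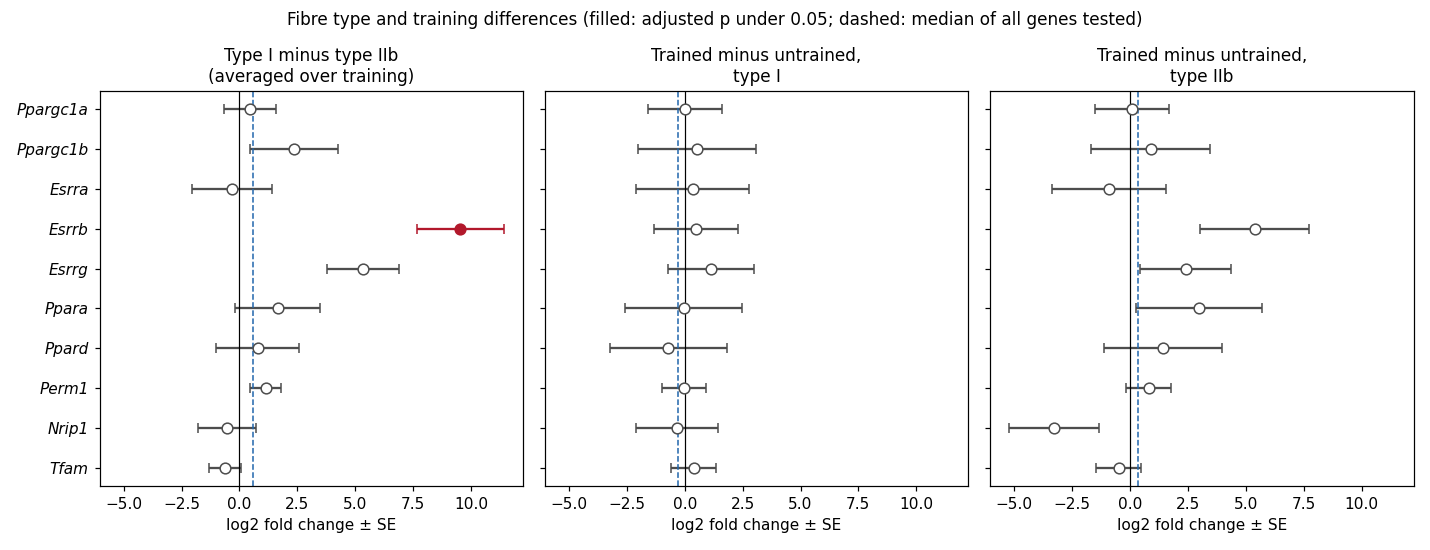
Log2 differences with SE of the 10 regulators between fibre types averaged over training, and with training in type I and type IIb fibres. Esrrb at 9.53 is the only filled point, the dashed lines mark the medians of all genes tested (0.60, -0.28 and 0.36), and the training values scatter on both sides of 0.

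Levels were also ordered per length, in FPKM, within each group. In trained type I fibres the order was Esrrg at 59.7 ± 44.2, Tfam at 49.9 ± 27.3, Perm1 at 44.7 ± 35.2, Ppargc1a at 23.1 ± 16.6 and Esrrb at 22.6 ± 12.8, then Nrip1, Ppargc1b, Ppara, Esrra and Ppard between 10.5 and 1.62. In untrained type I fibres Perm1 at 51 ± 9.53 led Tfam at 48.4 ± 17.5, Esrrg at 33.2 ± 6.23, Ppargc1a at 25 ± 6.32 and Esrrb at 18.7 ± 3.47, with the same 5 genes below, in the same order. Neighbours differed by more than the larger SD only between Esrrg and Ppargc1a and between Esrrb and Nrip1 in untrained type I fibres, and between no neighbours in trained type I fibres. In type IIb fibres Tfam led, at 43.8 ± 5.48 in trained and 70.6 ± 37.7 in untrained libraries, and Esrrb was last, at 0.109 ± 0.127 and 0 FPKM. Tfam was there separated from the next gene, Perm1 at 19.6 ± 16.2 in trained and Nrip1 at 29.8 ± 32.9 in untrained fibres, by more than the larger SD, and no other neighbours were. The deposited gene lengths were shorter than the exon union in GENCODE for 9 of the 10 genes, for example 1696 against 7514 bases for Ppard, which limits comparisons between genes.

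The genes most like each regulator over the 12 libraries were found by Pearson's r of log2(CPM + 1), as a description over 11746 other genes without a test. Both fibre types, library depth and the number of genes detected enter each r. Esrrb ran with Myh7 (r = 0.995), the slow myosin, and Myom3 (0.994), an M-band protein of slow and intermediate fibres. Esrrg ran with Tmem159 (0.99) and with Cd36 (0.981), the fatty acid transporter, and Esrrb was the regulator most like it (0.908). Hadh, an enzyme of fatty acid oxidation, was among the genes closest to Ppargc1b (0.941), and Ppargc1a was closest to Mgst3 (0.966) and Uaca (0.95). Perm1 was closest to Rap1gds1 (0.943) and Rab22a (0.931), Esrra to Abca7 (0.94) and Nek1 (0.936), Ppara to Bcl7a (0.954) and Ube2t (0.953), and Ppard to Lrp3 (0.974) and Brpf1 (0.971). For Nrip1 the closest genes were Gm10762 (0.96) and Fam118b (0.94), and for Tfam they were Heatr3 (0.832) and Gm11598 (0.826).

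Genes that act upstream of Ppargc1a differed between fibre types in both directions. Of 22 listed and tested, averaged over training, 1 was called higher and 3 were called lower in type I fibres, where 1.11% of all genes were called higher and 0.826% lower. The list's median log2 difference was -0.18, against 0.60 for all genes. Prkab2 and Prkag3, the β2 and γ3 subunits of the AMP-activated kinase, were both lower. Prkab2 averaged 73.4 ± 50.7 CPM in trained and 65.4 ± 3.63 CPM in untrained type I fibres, against 801 ± 270 CPM in trained and 450 ± 234 CPM in untrained type IIb fibres, a log2 difference of -3.12 (SE 0.49, adjusted p = 0.0011). Prkag3 averaged 8.91 ± 7.42 CPM in trained and 4.26 ± 5.35 CPM in untrained type I fibres, against 262 ± 123 CPM in trained and 88.8 ± 68.2 CPM in untrained type IIb fibres, a log2 difference of -4.63 (SE 0.96, adjusted p = 0.0135).

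The Prkab2 call averaged over training held without any single library and in every other setting tried. The Prkag3 call ended without untrained type I library 3 (adjusted p = 0.0548). It also ended without the 3 libraries highest in endothelial markers, with a single untrained type I library left, where the log2 difference was -5.71. Within trained mice Prkab2 was the 1 gene of the list called, at a log2 difference of -3.45 (SE 0.71, adjusted p = 0.0258), and the call ended without any of the trained type I libraries or trained type IIb library 2 (0.0542 to 0.147). It also ended without the expression filter (0.137) and from the groups compared alone (0.115), at log2 differences of -3.45 and -3.53.

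A pair of genes of calcineurin signalling was also called, in opposite directions. Ppp3ca, a catalytic subunit of this calcium-dependent phosphatase, was lower in type I fibres, at -1.78 (SE 0.43, adjusted p = 0.0372), and Rcan1, its inhibitor and transcriptional target, was higher, at 1.97 (SE 0.47, adjusted p = 0.0353). Ppp3ca had 197 ± 77.4 CPM in trained and 151 ± 38 CPM in untrained type I fibres, against 623 ± 319 CPM in trained and 563 ± 325 CPM in untrained type IIb fibres. Rcan1 had 869 ± 239 CPM in trained and 664 ± 381 CPM in untrained type I fibres, against 197 ± 125 CPM in trained and 191 ± 134 CPM in untrained type IIb fibres. Both calls lay near the threshold. The Ppp3ca call held only without trained type I library 1, untrained type IIb library 3 or trained type IIb library 3 and ended without any of the 9 others (0.0532 to 0.145). The Rcan1 call ended without untrained type I libraries 1 or 2, trained type I libraries 1 or 3, untrained type IIb libraries 1 or 2 or trained type IIb library 3 (0.0514 to 0.114).

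Of 22 PPAR target genes, 20 were tested and 2 were called higher in type I fibres averaged over training, against 1.11% of all genes. Their median log2 difference was 1.89, with 18 positive, against 0.60 for all genes. Fabp4, on this list, is also an endothelial marker. Fabp3, the fatty acid-binding protein of heart and slow muscle, averaged 1532 ± 907 CPM in trained and 1110 ± 358 CPM in untrained type I fibres, against 130 ± 101 CPM in trained and 97 ± 83.5 CPM in untrained type IIb fibres (log2 difference 3.53, SE 0.60, adjusted p = 0.00218). Its call held without any single library and ended with limma voom (adjusted p = 0.0912), where the log2 difference was 3.97. It also ended without the 3 libraries highest in endothelial markers, with a single untrained type I library left, where the log2 difference was 3.62. Acadl, a long-chain acyl-CoA dehydrogenase, averaged 1093 ± 843 CPM in trained and 473 ± 201 CPM in untrained type I fibres, against 334 ± 224 CPM in trained and 96.6 ± 76 CPM in untrained type IIb fibres (2.00, SE 0.50, adjusted p = 0.0445). The Acadl call held only without trained type I libraries 2 or 3, untrained type IIb library 2 or trained type IIb library 1, and ended without any of the 8 others (0.0651 to 0.123).

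All 19 PGC-1 and ERR target genes were tested, and 2 were called higher and 1 lower in type I fibres averaged over training, against 1.11% and 0.826% of all genes. Their median log2 difference was 0.13, below that of all genes. Ckmt2, the mitochondrial creatine kinase of muscle, averaged 5173 ± 3561 CPM in trained and 2483 ± 835 CPM in untrained type I fibres, against 873 ± 789 CPM in trained and 896 ± 603 CPM in untrained type IIb fibres (2.02, SE 0.44, adjusted p = 0.0197). Fndc5, which encodes the precursor of irisin, averaged 132 ± 83.7 CPM in trained and 80.7 ± 42.3 CPM in untrained type I fibres, against 7.71 ± 13.1 CPM in trained and 0.268 ± 0.465 CPM in untrained type IIb fibres (6.12, SE 1.48, adjusted p = 0.0391). The gene called lower was Idh3a, a subunit of isocitrate dehydrogenase in the tricarboxylic acid cycle, at 100 ± 24.7 CPM in trained and 110 ± 33.9 CPM in untrained type I fibres, against 411 ± 97.1 CPM in trained and 396 ± 213 CPM in untrained type IIb fibres (-1.94, SE 0.44, adjusted p = 0.0235).

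These 3 calls also depended on single libraries. The Ckmt2 call ended without trained type I library 2, untrained type IIb libraries 1 or 3 or trained type IIb library 2 (0.058 to 0.12). The Fndc5 call held only without trained type I library 3, untrained type IIb library 2 or trained type IIb library 3, and ended without any of the 9 others (0.0587 to 0.0845). The Idh3a call held without untrained type I library 2, trained type I library 1, untrained type IIb library 1 or trained type IIb libraries 1 or 3, and ended without any of the 7 others (0.0505 to 0.0947).

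The remaining lists had no gene called. Of 16 other factors of mitochondrial biogenesis and mitochondrial DNA, 15 were tested, with a median log2 difference between fibre types averaged over training of 0.03. Ssbp1, which binds single-stranded mitochondrial DNA, gave 0.54 (SE 0.53, adjusted p = 0.745), and the transcription factor Yy1 gave -0.30 (SE 0.77, adjusted p = 0.953). Of 19 partner receptors and coregulators 18 were tested, with a median of 0.03, and the acetyltransferase Kat2b gave 0.53 (SE 0.58, adjusted p = 0.796) and the corepressor Ncor1 0.02 (SE 0.63, adjusted p = 1). The 13 mitochondrially encoded protein genes, transcribed from the DNA that Tfam packages, all had negative values between fibre types. Their median was -1.14 against 0.60 for all genes, and mt-Cytb gave -1.56 (SE 0.51, adjusted p = 0.138) and mt-Nd1 -1.21 (SE 0.45, adjusted p = 0.19). Together they made up 19.8 to 21.4% of counts in trained and 21.7 to 22.7% in untrained type IIb libraries. The trained type I range, 3.96 to 24.5%, enclosed both, and untrained type I libraries had 10.7 to 11.7%.

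In the type I training comparison the same 13 genes were all positive, with a median of 1.13 against -0.28 for all genes, and 0 were called. They made up 3.96 to 24.5% of counts in trained and 10.7 to 11.7% in untrained type I libraries, so the trained libraries enclosed the untrained ones. With training, edgeR called no gene of any of the 6 lists in either fibre type, in the interaction or averaged over fibre types.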

How the data were processed

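The table of counts deposited by the authors gives raw whole-number reads for every gene, and their deposited FPKM values scale these counts to gene length and library total. Per the submitters' processing notes, reads were handled with TopHat2 and mm10, while its version, the counting program and the annotation were not given in the sources used here. Libraries were made with SMART-Seq HT and Nextera XT kits, per the labels' protocols, which use no molecular identifiers. Reads copied from the same molecule could therefore not be merged. Intervals and floors treat every read as independent and cover the counting error of reads alone, so they may be too narrow for molecules.

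Counts were tested with edgeR 4.0.16 in R 4.3.3 (TMM, robust quasi-likelihood fit, 1 mean for each of 4 groups over 12 libraries, minimum count 10 and minimum total count 15, Benjamini-Hochberg over 11747 genes). SE is the absolute log2 fold change over the square root of the F statistic. The 7 comparisons were training in each fibre type, fibre type in each training state, their interaction and the averages of both. The code was tested on simulated data with large planted changes and the same dispersion for all genes, which does not measure power or error rates in these libraries. Pooled folds divide summed counts by summed TMM-scaled library sizes, and their 95% intervals are Clopper-Pearson. Alternatives were DESeq2 1.42.0, limma 3.58.1 voom with quality weights and DESeq2 size factors in edgeR. Further ones were no filter, only the groups compared, a replicate block and each library left out. The 2 fits without several libraries were chosen after seeing the data. That without the 3 libraries highest in endothelial markers left untrained type I fibres with a single library.

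The 10 regulators and the lists were chosen with earlier results of these data known. All regulators are named, and of each list the genes called, or else the 2 with the highest mean CPM. For likeness, the 2 genes with the highest correlation to each regulator are named, except 1 that is not reported here. Libraries of different groups that share a number were not paired, since the labels give no pairing of animals and do not say whether groups share mice. Of 18 such pairs, 4 had a correlation of deviations over 0.1, without unmatched pairs set beside them.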

Additional observations from a re-analysis of the deposited data

How the results depend on the processing

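The Esrrb call between fibre types averaged over training held in all 12 fits that left out a library and under each alternative but that without the 3 libraries highest in endothelial markers. Counts of regulators called were unchanged at 0 in every training and interaction fit. Between fibre types averaged over training, DESeq2 called 2, limma voom 3 and the fit without the expression filter 2, against 1, and leaving out a library gave 1 to 2, with 2 without untrained type IIb library 2 or trained type IIb library 3. In trained mice DESeq2 called 1 and limma voom 2, against 0, and in untrained mice both called 2.

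Over all genes the tools differed more, and counts without the 3 libraries highest in endothelial markers rest on a single untrained type I library. Between fibre types averaged over training, 227 genes were called by edgeR, 1098 by DESeq2, 1072 by limma voom and 89 without the 3 libraries highest in endothelial markers, and 119 to 220 with a library left out, moving by over 1.5 times without untrained type I libraries 1, 2 or 3, untrained type IIb library 3 or trained type IIb library 2. In trained mice 63 were called by edgeR, 346 by DESeq2, 144 by limma voom and 39 from the groups compared alone, and 29 to 77 with a library left out, with the largest drops without trained type I library 1 or trained type IIb library 2. In untrained mice 54 were called by edgeR, 1031 by DESeq2, 1898 by limma voom, 123 without the filter and 25 without the endothelial-high libraries, and 22 to 63 with a library left out, with drops over 1.5 times without untrained type I libraries 1, 2 or 3 or untrained type IIb library 3. With training in type I fibres edgeR called 0 genes, DESeq2 59, limma voom 9 and the unfiltered fit 7, and 0 to 1 with a library left out. In type IIb fibres the counts were 0, 364, 2 and 9, with 2 without the endothelial-high libraries, 1 without the 2 gene-poorest libraries (library 1 of either type IIb group) and 0 to 2 with a library left out. The interaction gave 0, 390, 3 and 26, with 1 without the 2 gene-poorest libraries and 0 to 2 with a library left out, and training averaged over fibre types gave 0, 227, 3 and 5, with 1 and 0 to 1.

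Signs turned where the difference was small or rested on few counts. Ppargc1a between fibre types gave -0.12 without the 2 gene-poorest libraries. With training in type I it gave -0.22 under DESeq2 size factors and -0.22 by DESeq2, -0.04 without the filter, -0.32 without the endothelial-high libraries, and -0.28 to 0.26 with a library left out, negative without untrained type I library 3 or trained type I libraries 2 or 3. In type IIb it gave -0.61 without the endothelial-high libraries and -0.56 to 1.12 with a library left out, negative without untrained type IIb library 1 or trained type IIb libraries 2 or 3. Esrra between fibre types gave 1.34 by limma voom, 3.45 without the endothelial-high libraries and -0.93 to 3.9 with a library left out, and the log2 ratio of its mean levels was -0.39 in CPM and 0.00 in FPKM. Esrrg with training in type IIb gave -6.84 without the endothelial-high libraries and -7.16 to 9.6 with a library left out. With a library left out, Ppard between fibre types gave -0.63 to 4.04, Nrip1 -2.76 to 0.12, Perm1 with training in type I -0.47 to 0.42 (positive without library 2 of either type I group), and Tfam -0.33 to 0.73 in type I (negative without trained library 1) and -0.76 to 0.03 in type IIb (positive without untrained library 3). None of these was called in any of those fits. The cause of these turns was not tested. For every regulator the log2 ratio of mean levels, type I over type IIb, was higher in FPKM than in CPM. FPKM scales to the library total, while CPM here also divides by the TMM factor. That factor was 0.832 to 1.62 in type I and 0.686 to 0.952 in type IIb libraries. It applies to all genes of a library alike, so the shift is not particular to the regulators. The log2 ratio was 0.98 in FPKM against 0.44 in CPM for Ppargc1a, 1.36 against 0.65 for Ppard and -0.61 against -1.30 for Nrip1.

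The replicate block, which treats the shared numbers as pairs, gave 138 genes averaged over training and 41 in trained mice, against 227 and 63, and moved no count of regulators called. It left Esrrb called at adjusted p = 0.0392, ended the calls of Ppp3ca (0.0681), Rcan1 (0.0773), Acadl (0.0886), Ckmt2 (0.057), Fndc5 (0.0953) and Idh3a (0.0664) averaged over training and of Prkab2 in trained mice (0.0874), gave 5.15 for Ppara between fibre types (adjusted p = 0.36, against 1.65), and turned the sign of Ppargc1a with training in type I (-0.34), of Perm1 with training in type I (0.06) and of Esrra between fibre types (1.26). Libraries deviated most like the library of their own number in 12 of 36 checks, each a choice among the 3 libraries of another group. The calls of Ppp3ca, Rcan1 and Acadl ended in 5 of 7 other settings each, this block included, of Ckmt2 in 4, of Idh3a in 3 and of Fndc5 in 1. Type IIb libraries with under 10 counts of a receptor limit what these comparisons can show.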
